A study of Homo sapiens with 8 samples.

Results

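Integrins and laminins are the cell-surface receptors and basement membrane ligands through which cells hold to the matrix around them. The genes described here are 37 of the 19479 listed, and their symbols begin with ITGA or ITGB or consist of LAMA, LAMB or LAMC and a digit. ITGBL1 and symbols that contain BP were left out, since they name look-alike and binding proteins and not chains. The 37 comprise 18 integrin α and 8 integrin β genes, the others being laminin chains.

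RNA was sequenced from AC16, an established and dividing human line derived by fusing ventricular cardiomyocytes with virus-transformed fibroblasts, which the labels call a cardiomyocyte line. The 8 libraries form 4 groups of 2. The 5 mM group was kept in 5 mM D-glucose, and the 5 to 50 mM group came from the same kind of culture with 45 mM glucose added for its last 24 h. The 25 mM group was kept in 25 mM D-glucose, and the 25 to 50 mM group had 25 mM added for its last 24 h. All groups grew in serum-containing DMEM, spent at least 3 passages in their maintenance glucose, and were replated in it for 24 h before any rise. The series calls its replicates technical, so p-values measure the spread between libraries only. Values are RPKM, reads scaled to gene length in kilobases and to library depth, and each group mean or SD has n = 2.

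Each integrin is a pair of one α and one β chain that spans the membrane, and the α chain largely sets which ligand is bound. Collagen-binding, laminin-binding and RGD-binding α chains (RGD being a peptide motif of fibronectin, vitronectin and similar proteins) are distinct groups, and many of them pair with the β chain encoded by ITGB1. Each laminin is a cross-shaped trimer of an α, a β and a γ chain that is secreted and assembles into the sheet of the basement membrane. In heart, laminin with the LAMA2 chain surrounds each cardiomyocyte, LAMA4 is a chain of vessels and muscle, and ITGA7 is the main laminin-binding α chain of mature muscle. LAMA3 and LAMB3 are chains of the laminin under epithelia.

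Library depth ran from 21538898 to 27372851 reads, and 3 reads in a gene of 1 kb corresponded to 0.110 to 0.139 RPKM. The replicates differed by more than counting error in each group, with chi-square values per degree of freedom, over all genes, of 16.6 at 5 mM, 2.60 at 5 to 50 mM, 6.73 at 25 mM and 7.84 at 25 to 50 mM. Of 23 cardiomyocyte markers, 5 had a mean of at least 1 RPKM, and MYL2, NKX2-5, TBX5 and CASQ2 were at 0 in all 8 libraries. TNNT2 was at 0 to 0.0945 RPKM, MYH6 at 0 to 0.00644 and ACTN2 at 0.0781 to 1.04, whereas ATP2A2, a calcium pump of many cell types, was at 196 to 216. GJA1, a gap junction gene, was at 94.1 to 121 RPKM, NPPA at 1.67 to 4.79, GATA4 at 0.253 to 3.18 and ACTC1, a sarcomere actin, at 0.357 to 2.23. Among the listed sarcomere genes ACTC1 alone reached a mean of 1 RPKM, so these genes bore out the label of cardiomyocyte little. All 15 fibroblast markers had a mean of at least 1 RPKM. Of the other lists, 4 of 15 leukocyte, 0 of 7 platelet, 3 of 10 epithelial, 2 of 10 endothelial and 5 of 10 smooth muscle and Schwann cell markers had a mean of at least 1 RPKM, with CD3E, CD3D, MS4A1, PPBP, GP9, KRT5 and CDH5 at 0 in all 8.

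Of the 37 chains, 24 had a mean of at least 1 RPKM over the 8 libraries and 19 a mean of at least 10 RPKM. ITGB1 was highest, at a mean of 989 RPKM, followed by ITGA5 at 169, LAMC1 at 156, ITGA3 at 144 and LAMB1 at 115. RPKM here is per coding length, so levels of different genes can be set side by side on that scale. Another 12 chains stayed under 1 RPKM in every library: ITGA2B, ITGA8, ITGA9, ITGAD, ITGAL, ITGAM, ITGAX, ITGB2, ITGB6, ITGB7, LAMB4 and LAMC3. ITGAL, ITGAM, ITGAX and ITGAD, which pair with ITGB2 on leukocytes, had at most 10 reads in any library, and ITGB2 itself at most 6. ITGA2B, the platelet partner of ITGB3, reached 0.820 RPKM at most. ITGA8, whose product pairs with ITGB1 as an RGD receptor, had 34 and 53 reads at 5 mM, 47 and 47 at 5 to 50 mM, 0 and 1 at 25 mM, and 1 and 0 at 25 to 50 mM. These 12 were under the filter of at least 1 RPKM in at least 2 libraries and were not tested.

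**Figure D1:**
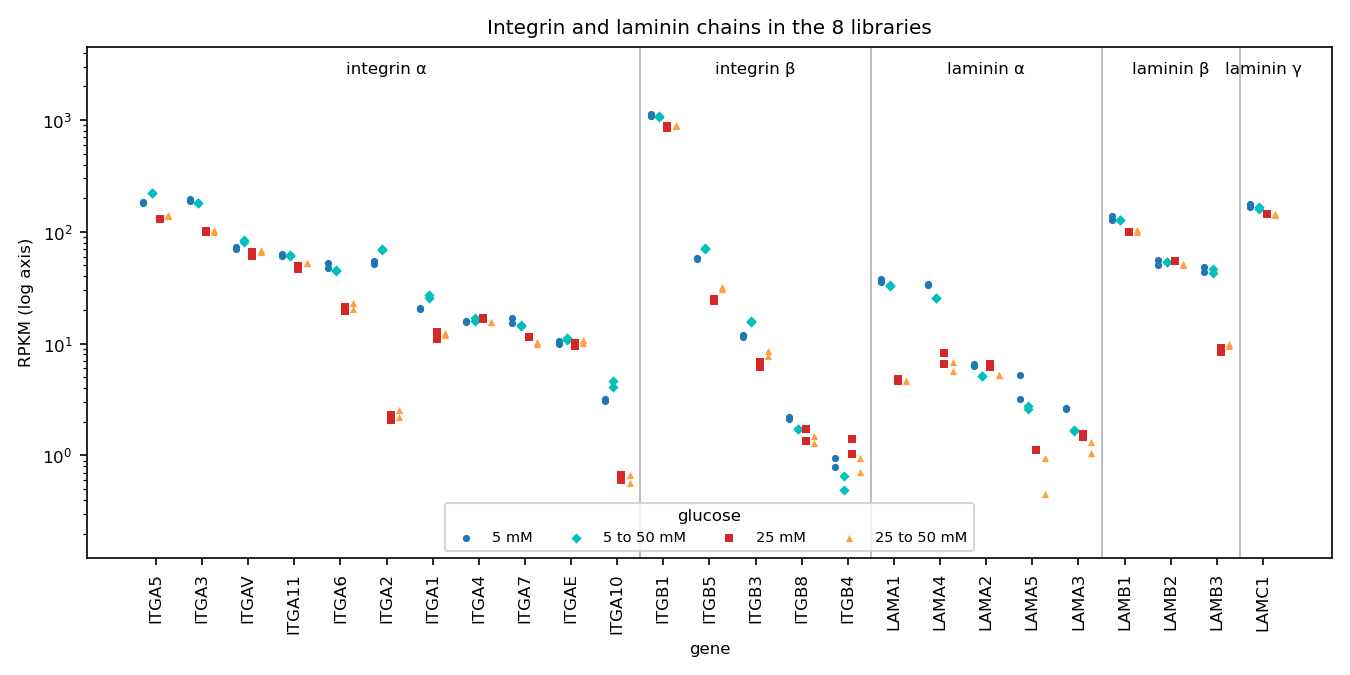
RPKM on a log axis (vertical) of the 25 chains tested between maintenance cultures (horizontal), ordered within each class by mean level, with 1 point per library and shape and colour for the 4 glucose groups. ITGB1 lies between 857 and 1136 RPKM in all 8 libraries, while the points of ITGA2, LAMA1, LAMA4 and LAMB3 from cells kept at 25 mM lie well below those from cells kept at 5 mM.

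Cells kept at 25 mM glucose had lower RNA levels of most chains than cells kept at 5 mM. Of the 25 chains tested, 20 were lower at 25 mM and 0 were higher (limma on log2(RPKM + 1), Benjamini-Hochberg adjusted p under 0.05 over 11941 genes). Over all genes tested, 22.1% were lower and 17% higher. The median log2 change was -0.49 over the 25 chains and 0.00 over all genes. Folds given below are ratios of mean RPKM, whereas log2 changes are of RPKM + 1 and are smaller for genes at low levels. ITGA10 passed the filter only through the cells kept at 5 mM and ITGB4 only through the 25 mM group, so the 25 are not all chains. The 20 include ITGA10. Each table was scaled to its own library totals, and the maintenance glucose cannot be told apart from any other difference between the 2 separately passaged cultures. In bulk RNA, fewer cells of a type and less RNA per cell cannot be told apart.

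The collagen-binding α chains are ITGA1, ITGA2, ITGA10 and ITGA11, and all 4 were lower at 25 mM. ITGA2, the α chain of the collagen receptor of platelets and epithelia, was at 55.2 and 51.9 RPKM at 5 mM, 70.1 and 69.4 at 5 to 50 mM, 2.08 and 2.28 at 25 mM, and 2.57 and 2.19 at 25 to 50 mM. Both 25 mM libraries and both 25 to 50 mM libraries lay far below the other 4, with no overlap. The mean RPKM was 24.5-fold lower at 25 mM than at 5 mM (log2 change -4.10 ± 0.081 SE, limma adjusted p = 2.6e-07). ITGA10, a collagen receptor chain best known from cartilage, was at 3.07 and 3.18 RPKM at 5 mM, 4.66 and 4.05 at 5 to 50 mM, 0.599 and 0.662 at 25 mM, and 0.569 and 0.674 at 25 to 50 mM. Its mean was 4.96-fold lower at 25 mM (log2 change -1.34 ± 0.099 SE, limma adjusted p = 4.76e-05), which is 2.53-fold on RPKM + 1. All 4 libraries of cells kept at 25 mM were under 1 RPKM. ITGA10 passed the filter only through the cells kept at 5 mM, where it was high, so its call is not support for a difference. ITGA1, whose product prefers basement membrane collagen, was at 20.3 and 20.6 RPKM at 5 mM, 27.4 and 25.5 at 5 to 50 mM, 11.1 and 12.6 at 25 mM, and 12.4 and 11.9 at 25 to 50 mM. The 4 libraries of cells kept at 25 mM were lower than the other 4, and the mean was 1.73-fold lower at 25 mM than at 5 mM (log2 change -0.74 ± 0.078 SE, limma adjusted p = 0.000265). ITGA11, a receptor for fibrillar collagen on fibroblasts, had the smallest difference of the 4, at 61.1 and 63.9 RPKM at 5 mM, 60.3 and 61.4 at 5 to 50 mM, 46.4 and 49.0 at 25 mM, and 52.9 and 53.0 at 25 to 50 mM. Its 25 mM libraries were below its 5 mM ones by 1.31-fold in the mean (log2 change -0.38 ± 0.051 SE, limma adjusted p = 0.000876).

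All 3 laminin-binding α chains were lower at 25 mM. ITGA3, which binds laminins with LAMA3 and LAMA5 chains, was at 189 and 196 RPKM at 5 mM, 181 and 183 at 5 to 50 mM, 99.0 and 103 at 25 mM, and 103 and 98.6 at 25 to 50 mM. The groups did not overlap, and the mean was 1.91-fold lower at 25 mM (log2 change -0.93 ± 0.046 SE, limma adjusted p = 8.63e-06). ITGA6, a laminin receptor chain of epithelia and many other cells, was at 52.9 and 47.6 RPKM at 5 mM, 44.4 and 45.5 at 5 to 50 mM, 21.1 and 19.7 at 25 mM, and 20.4 and 22.9 at 25 to 50 mM. It was 2.46-fold lower at 25 mM (log2 change -1.26 ± 0.079 SE, limma adjusted p = 2.23e-05). ITGA7, the laminin receptor chain of muscle, was at 15.4 and 17.0 RPKM at 5 mM, 14.5 and 14.8 at 5 to 50 mM, 11.5 and 11.5 at 25 mM, and 10.4 and 9.84 at 25 to 50 mM. Its difference was 1.41-fold (log2 change -0.46 ± 0.074 SE, limma adjusted p = 0.00219). The span of ITGA7 overlaps that of BLOC1S1, which was at 102 to 113 RPKM, and whether the 2 share counted coding bases was not tested.

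Among RGD-binding α chains, ITGA5 and ITGAV were lower at 25 mM. ITGA5, the fibronectin receptor chain, was at 185 and 183 RPKM at 5 mM, 221 and 221 at 5 to 50 mM, 129 and 131 at 25 mM, and 139 and 140.2 at 25 to 50 mM. The 2 groups at 50 mM lay above their own controls and the cells kept at 25 mM lay below the rest, with a 1.41-fold difference between 25 mM and 5 mM (log2 change -0.49 ± 0.039 SE, limma adjusted p = 6.48e-05). ITGAV, which pairs with several β chains and takes part in activating latent TGF-beta, was at 72.7 and 70.7 RPKM at 5 mM, 85.1 and 81.7 at 5 to 50 mM, 61.1 and 65.4 at 25 mM, and 65.3 and 68.5 at 25 to 50 mM. Its 1.13-fold difference (log2 change -0.18 ± 0.055 SE, limma adjusted p = 0.0345) was among the smallest called. The adjusted p in limma was 0.0871 without 5 mM replicate 1, 0.194 without 25 mM replicate 1, and 0.0611 and 0.0613 without 5 to 50 mM replicate 1 and replicate 2.

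ITGA4 and ITGAE, chains best known from leukocytes, did not pass the test. ITGA4, which binds fibronectin and VCAM1, was at 15.5 and 16.0 RPKM at 5 mM, 16.9 and 16.1 at 5 to 50 mM, 16.7 and 16.8 at 25 mM, and 15.6 and 15.5 at 25 to 50 mM, so the 8 libraries spanned only 15.5 to 16.9 RPKM. The log2 difference was 0.08 with an interval of -0.06 to 0.23. ITGAE ranged from 9.47 to 11.2 RPKM over the 8 libraries, and its groups overlapped. Its reads may be shared with HASPIN, a gene inside it that was at 16.6 to 21.3 RPKM.

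Of the β chains, ITGB1, ITGB3, ITGB5 and ITGB8 were lower at 25 mM. ITGB1, the partner of most α chains here, was at 1136 and 1081 RPKM at 5 mM, 1074 and 1079 at 5 to 50 mM, 857 and 893 at 25 mM, and 891 and 901 at 25 to 50 mM. Its 4 libraries of cells kept at 25 mM were below the other 4, by 1.27-fold between 25 mM and 5 mM (log2 change -0.34 ± 0.043 SE, limma adjusted p = 0.000699). ITGB5, a partner of ITGAV in binding vitronectin, was at 57.8 and 56.6 RPKM at 5 mM, 70.5 and 71.2 at 5 to 50 mM, 24.1 and 25.0 at 25 mM, and 30.9 and 32.1 at 25 to 50 mM. It was 2.33-fold lower at 25 mM (log2 change -1.19 ± 0.051 SE, limma adjusted p = 4.5e-06). ITGB3, the other vitronectin partner of ITGAV, was at 11.9 and 11.4 RPKM at 5 mM, 15.5 and 16.0 at 5 to 50 mM, 6.89 and 6.20 at 25 mM, and 7.70 and 8.52 at 25 to 50 mM. Its difference was 1.78-fold (log2 change -0.75 ± 0.083 SE, limma adjusted p = 0.000351), and for both genes each rise to 50 mM lay above its own control.

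ITGB8, an ITGAV partner in TGF-beta activation, was at 2.21 and 2.10 RPKM at 5 mM, 1.71 and 1.73 at 5 to 50 mM, 1.74 and 1.35 at 25 mM, and 1.48 and 1.30 at 25 to 50 mM. Its adjusted p of 0.0492 (limma) was close to the threshold, and it was 0.0669 to 0.250 without any 1 of 7 of the libraries, 25 mM replicate 3 giving the highest. ITGB4, the ITGA6 partner of epithelial hemidesmosomes, was at 0.784 and 0.941 RPKM at 5 mM, 0.654 and 0.490 at 5 to 50 mM, 1.03 and 1.39 at 25 mM, and 0.947 and 0.704 at 25 to 50 mM. The log2 difference of 0.24 did not pass (adjusted p = 0.179 in limma).

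Of the 5 laminin α chains, 4 were lower at 25 mM, and their median log2 change was -1.28, beside -0.39 for the 3 laminin β chains tested. LAMA1, the chain of early embryonic basement membranes, was at 37.9 and 35.5 RPKM at 5 mM, 32.6 and 33.1 at 5 to 50 mM, 4.81 and 4.66 at 25 mM, and 4.60 and 4.60 at 25 to 50 mM. Its 4 libraries of cells kept at 25 mM lay between 4.60 and 4.81 RPKM, and the mean was 7.75-fold lower at 25 mM (log2 change -2.72 ± 0.066 SE, limma adjusted p = 5.43e-07). LAMA4, a chain of vessels, muscle and fibroblasts, was at 33.7 and 34.3 RPKM at 5 mM, 25.6 and 25.8 at 5 to 50 mM, 6.63 and 8.31 at 25 mM, and 6.85 and 5.66 at 25 to 50 mM. It was 4.55-fold lower at 25 mM (log2 change -2.05 ± 0.11 SE, limma adjusted p = 1.35e-05). LAMA5, the widely made chain of mature basement membranes, was at 3.22 and 5.22 RPKM at 5 mM, 2.75 and 2.58 at 5 to 50 mM, 1.11 and 1.12 at 25 mM, and 0.939 and 0.451 at 25 to 50 mM. The 5 mM libraries were far apart for this gene, and the 3.78-fold lower mean at 25 mM still passed the test (log2 change -1.28 ± 0.20 SE, limma adjusted p = 0.00186).

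LAMA3, the epithelial chain, was at 2.65 and 2.60 RPKM at 5 mM, 1.67 and 1.69 at 5 to 50 mM, 1.54 and 1.45 at 25 mM, and 1.32 and 1.05 at 25 to 50 mM. It was 1.75-fold lower at 25 mM (log2 change -0.54 ± 0.098 SE, limma adjusted p = 0.00379). LAMA2, the chain of the muscle fibre's own basement membrane, did not pass the test and was at 6.63 and 6.36 RPKM at 5 mM, 5.13 and 5.11 at 5 to 50 mM, 6.52 and 6.21 at 25 mM, and 5.23 and 5.25 at 25 to 50 mM. The 5 mM and 25 mM groups overlapped, with a log2 difference of -0.03 and an interval of -0.20 to 0.15.

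LAMB3, the β chain of epithelial laminin, was at 43.5 and 48.5 RPKM at 5 mM, 43.0 and 46.1 at 5 to 50 mM, 8.34 and 9.05 at 25 mM, and 9.99 and 9.60 at 25 to 50 mM. The highest library of cells kept at 25 mM, at 9.99 RPKM, lay far below the lowest of those kept at 5 mM, at 43.0, and the mean was 5.29-fold lower at 25 mM than at 5 mM (log2 change -2.28 ± 0.078 SE, limma adjusted p = 1.65e-06). LAMB1, the common β chain, was at 137 and 126 RPKM at 5 mM, 127 and 128 at 5 to 50 mM, 100.0 and 99.9 at 25 mM, and 100.2 and 103 at 25 to 50 mM. It was 1.32-fold lower at 25 mM (log2 change -0.39 ± 0.050 SE, limma adjusted p = 0.000699). LAMB2, the β chain of synapses, kidney filter and muscle, was at 50.5 and 55.6 RPKM at 5 mM, 53.9 and 53.9 at 5 to 50 mM, 54.7 and 55.2 at 25 mM, and 51.9 and 50.8 at 25 to 50 mM, with overlapping groups. The log2 difference was 0.05 with an interval of -0.08 to 0.18.

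LAMC1, the γ chain of nearly all laminins, was at 179 and 165 RPKM at 5 mM, 161 and 166 at 5 to 50 mM, 146 and 144 at 25 mM, and 141 and 143 at 25 to 50 mM. Its difference of 1.19-fold passed the test (log2 change -0.24 ± 0.049 SE, limma adjusted p = 0.00617).

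Some marker lists moved with this contrast, in which 17% of all genes tested were higher and 22.1% lower. The 23 cardiomyocyte markers summed to 301 to 325 RPKM at 5 mM and 310 to 314 at 25 mM, with overlap. Nearly all of that sum came from ATP2A2, with means of 205 and 200 RPKM, and GJA1, with 98.8 and 108. The sum therefore says little of the other cardiomyocyte markers. Of the 5 cardiomyocyte markers tested, 2 were lower and 0 higher, and GATA4 had means of 3.04 and 0.417 RPKM. The summed RPKM of the 15 leukocyte markers was 259 to 271 at 5 mM and 99.5 to 99.7 at 25 mM, nearly all of it from CD68, a lysosomal protein that is not confined to leukocytes. Of the 5 leukocyte markers tested, 3 were lower and 0 higher, with means of 246 and 91.5 RPKM for CD68, 9.60 and 0.374 for LCP1, an actin-bundling protein, and 1.24 and 0.407 for CSF1R, a receptor of macrophages. CD14 had means of 2.17 and 1.30 RPKM and did not pass (adjusted p = 0.0515 in limma). PTPRC, which defines leukocytes, was under the filter, at 0.0856 to 0.124 RPKM at 5 mM and 0.136 to 0.195 at 25 mM. The 15 fibroblast markers summed to 6654 to 7323 RPKM at 5 mM and 6623 to 6985 at 25 mM, mostly from VIM, with 6 higher and 6 lower. Among them, FAP had means of 97.0 and 46.1 RPKM, S100A4 of 60.8 and 28.4 and COL1A1 of 1058 and 1525. The 10 epithelial markers summed to 208 to 217 RPKM at 5 mM and 171 to 186 at 25 mM (1 of 3 tested lower), mostly from KRT18. The 10 endothelial markers summed to 6.44 to 6.85 and 4.86 to 5.18 RPKM (1 of 2 lower). The 10 smooth muscle and Schwann cell markers summed to 112 to 127 and 103 to 108 RPKM (1 of 5 lower and 2 higher). Among epithelial markers under 1 RPKM in every library, EPCAM had means of 0.590 and 0.157 RPKM and CDH1 of 0.180 and 0.632. The part of these marker differences in the chains' differences was not tested.

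The same contrast could be made between the 2 groups at 50 mM, whose 4 libraries are not those above but come from the same 2 cultures. This comparison was added after the data were seen, and the glucose added also differed (45 mM against 25 mM). Both contrasts were fitted together on all 8 libraries with 1 shared spread, so their p-values are not independent. With each fitted on its own 4 libraries, 18 chains were lower and 0 higher in each. Of the 25 chains, 19 were lower in the 25 to 50 mM group and 0 were higher, beside 23.3% lower and 18.1% higher over all genes. All 19 were also lower at 25 mM than at 5 mM, and ITGB8 was the chain called there and not here. ITGA2 differed by 29.3-fold (log2 change -4.39 ± 0.081 SE, adjusted p = 1.27e-07), LAMA1 by 7.15-fold (log2 change -2.60 ± 0.066 SE, adjusted p = 5.75e-07), ITGA10 by 7.01-fold (log2 change -1.72 ± 0.099 SE, adjusted p = 1.25e-05), LAMB3 by 4.55-fold (log2 change -2.08 ± 0.078 SE, adjusted p = 2.2e-06) and LAMA4 by 4.12-fold (log2 change -1.89 ± 0.11 SE, adjusted p = 1.5e-05). These folds are ratios of mean RPKM, and on the fitted scale of RPKM + 1 they were 21.0, 6.05, 3.30, 4.22 and 3.70 in the same order. ITGA10 again passed the filter only through the cells kept at 5 mM, so its call is not support for a difference. At the other end were ITGA11, LAMC1 and LAMA3, with log2 changes of -0.20, -0.20 and -0.30 and adjusted p-values of 0.0169, 0.0152 and 0.0425 in limma. LAMA3 lost its call without either 5 to 50 mM library, either 25 mM library or 25 to 50 mM replicate 3 (adjusted p of 0.0648 to 0.228), and ITGA11 and LAMC1 lost theirs without any 1 of the 4 libraries at 50 mM (0.0567 to 0.103).

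A correction for GC content moved the split of all genes. With it, 3787 genes were higher and 2267 lower at 25 mM than at 5 mM, in place of 2032 and 2639, while 18 chains were lower and 0 higher. Between the 2 groups at 50 mM, it gave 4102 higher and 2282 lower genes in place of 2164 and 2782, with 16 chains lower and ITGB4 higher (log2 change 0.43, adjusted p = 0.0191 in limma). There it moved the median log2 change of all genes from -0.02 to 0.09. ITGB4 was under 1 RPKM in every library of these 2 groups and passed the filter only through the 25 mM group. Its call is therefore not support for a difference. Median centring gave 2799 higher and 2377 lower genes in the comparison at 50 mM, with 16 chains lower and 0 higher.

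**Figure D2:**
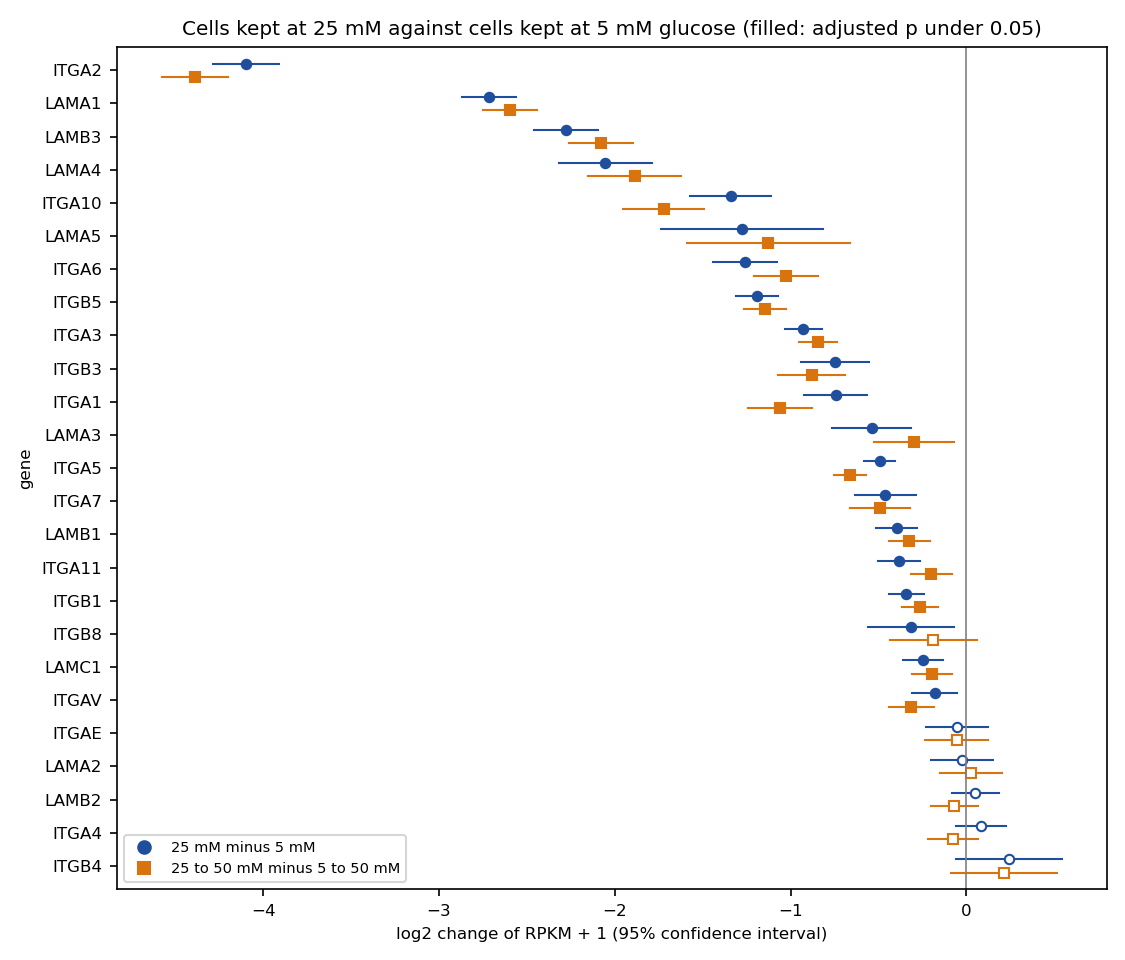
Log2 change of RPKM + 1 (horizontal) with its 95% confidence interval for each of the 25 chains tested (vertical), for 25 mM minus 5 mM (circles) and 25 to 50 mM minus 5 to 50 mM (squares), filled where the adjusted p is under 0.05. Both sets of points run from about -4 for ITGA2 to 0.24 and 0.21 for ITGB4, with ITGAE, LAMA2, LAMB2 and ITGA4 near 0.

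The make-up of the integrin RNA differed between the cultures as well as its amount. Summed over the 18 α chains, the mean level was 682 RPKM at 5 mM, 736 at 5 to 50 mM, 416 at 25 mM and 434 at 25 to 50 mM. The β chains summed to 1180, 1165, 909 and 938 RPKM, of which ITGB1 made up 92.3% to 96.3% in any library. The β to α ratio was therefore 1.73, 1.58, 2.18 and 2.16 in the same order. Of the α sum, ITGA2 made up 7.86% ± 0.35 (SD) at 5 mM and 9.47% ± 0.05 at 5 to 50 mM, but 0.525% ± 0.022 at 25 mM and 0.549% ± 0.064 at 25 to 50 mM. Collagen-binding chains were 20.5%, 21.9%, 15.0% and 15.7% of the α sum, laminin-binding chains 38.0%, 32.8%, 31.9% and 30.6%, and RGD-binding chains 37.7%, 41.6%, 46.7% and 47.7%.

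The make-up of the laminin RNA differed too. The 5 α chains summed to 84.0 RPKM at 5 mM, 68.1 at 5 to 50 mM, 21.2 at 25 mM and 18.0 at 25 to 50 mM. The β chains summed to 231, 226, 164 and 163 RPKM. A trimer holds equal numbers of the 3 kinds, and the β to α ratio of RNA was 2.75, 3.32, 7.73 and 9.08 in these groups. LAMA1 made up 43.7% of the α sum at 5 mM and 48.3% at 5 to 50 mM, against 22.4% at 25 mM and 25.7% at 25 to 50 mM. LAMA2 made up 7.73% and 7.52% in cells kept at 5 mM and 30.1% and 29.2% in cells kept at 25 mM, with a level of its own of 6.50 ± 0.19 RPKM at 5 mM and 6.36 ± 0.22 at 25 mM. LAMA4 held 40.5%, 37.8%, 35.2% and 34.7%. For epithelial laminin, the ratio of LAMB3 to LAMA3 RPKM was 17.5 at 5 mM, 26.5 at 5 to 50 mM, 5.82 at 25 mM and 8.36 at 25 to 50 mM.

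**Figure D3:**
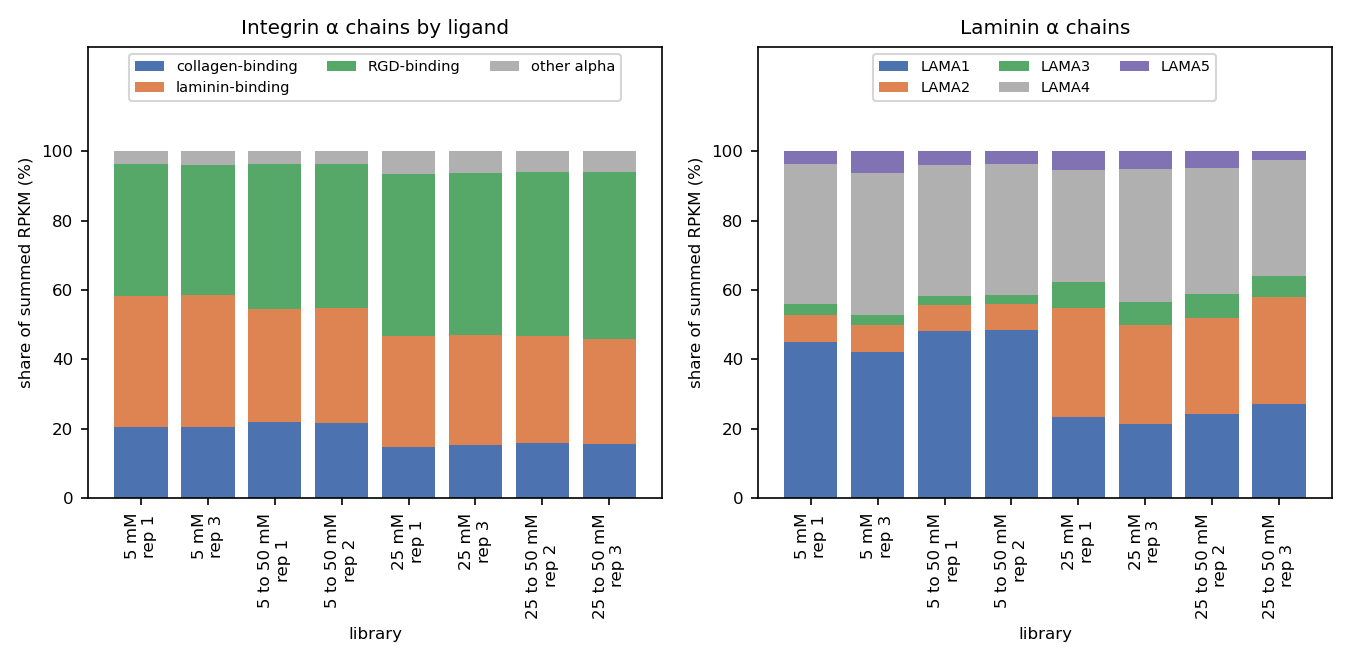
Stacked bars of the share (percent) of summed RPKM taken by integrin α chains grouped by ligand (left) and by each laminin α chain (right), 1 bar per library. The collagen-binding share is 20.5% to 22.0% in the 4 libraries of cells kept at 5 mM and 14.7% to 15.8% in the others, and LAMA2 takes a far larger share of laminin α RNA in cells kept at 25 mM.

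The rises to 50 mM glucose were the comparisons the study set up, in each case against cells left at the maintenance level. No chain passed the test in either rise. From 5 to 50 mM, 0 of 24 chains tested were called (limma), beside 0.312% of all genes called higher and 0.0169% lower, or 37 and 2 of 11849. At an unadjusted p under 0.05, 7 chains were higher and 3 lower, where the shares of all genes were 5.16% and 5.36%. Both libraries lay above both controls for 9 chains and below them for 10, where 16.6% and 26% of all genes did.

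The largest fitted values from 5 to 50 mM belonged to integrin chains on the higher side and laminin α chains on the lower. ITGB3 had a log2 difference of 0.40 ± 0.08 (SE, adjusted p = 0.193 in limma), ITGA2 of 0.37 ± 0.06 (0.134) and ITGA10 of 0.37 ± 0.11 (0.339). ITGA1, ITGB5, ITGA5 and ITGAV had values of 0.35, 0.30, 0.27 and 0.21. On the other side, LAMA5 had -0.48 ± 0.20 (0.483), LAMA3 -0.44 ± 0.10 (0.261) and LAMA4 -0.39 ± 0.06 (0.134). LAMA2, ITGB8, ITGA6 and LAMA1 followed with -0.29, -0.22, -0.16 and -0.15. For ITGB1, the interval of the difference was -0.17 to 0.09, and for LAMC1 -0.23 to 0.08.

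Leaving out 1 library of the 5 mM group changed these calls. Without 5 mM replicate 1, 7 chains were called, namely ITGA1, ITGA2, ITGA5, ITGB3 and ITGB5 as higher and LAMA4 and LAMA5 as lower, beside 805 genes in all. Without 5 mM replicate 3, 5 chains were called, namely ITGA1, ITGA2, ITGA5 and ITGB5 as higher and LAMA4 as lower, beside 560 genes. In both cases the spread rests on the 5 to 50 mM pair alone and the lone 5 mM library is assumed to vary like it. Without 5 to 50 mM replicate 1 or replicate 2, 0 chains were called, beside 4 and 0 genes. A joint fit of all 8 libraries called ITGA5 (adjusted p = 0.0259) and ITGB5 (0.0440) as higher among 130 genes, and the GC correction called ITGA2 (0.0339) among 140.

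From 25 to 50 mM, 0 of 24 chains tested were called (limma), beside 0.00876% of all genes higher, which is 1 of 11422, and 0% lower. At an unadjusted p under 0.05, 3 chains were higher and 1 lower, where the shares of all genes were 2.8% and 6.45%. Both libraries lay above both controls for 7 chains and below them for 9, where 14.4% and 29.1% of all genes did. ITGB5 had the largest value on the higher side, 0.35 ± 0.06 (adjusted p = 0.364), followed by ITGB3 with 0.27 ± 0.10 (0.502) and LAMB3 with 0.16 ± 0.08 (0.570). On the lower side were LAMA5 with -0.33 ± 0.17 (0.559), ITGB4 with -0.27 ± 0.15 (0.570) and LAMA2 with -0.24 ± 0.09 (0.508). LAMA5 and ITGB4, which are among the 9 chains below both controls, passed the filter only through the 25 mM group, where they were higher. Their values are therefore not support for a fall. ITGA2 had 0.08, with an interval of -0.20 to 0.37. Without 25 to 50 mM replicate 2, ITGB5 was called (log2 change 0.38, adjusted p = 0.0237) beside 777 genes in all.

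Laminin α chains had fitted values below 0 in both rises, 5 of 5 in each, where 59.5% and 63.7% of all genes tested did, with medians of -0.39 and -0.22 beside -0.03 and -0.03 over all genes tested. The 2 rises share no library. LAMA5 passed the filter in the rise from 25 to 50 mM only through the 25 mM group, where it was higher. Its value in that rise is therefore not support for a fall. For LAMA2 the level went from 6.50 ± 0.19 to 5.12 ± 0.011 RPKM from 5 to 50 mM and from 6.36 ± 0.22 to 5.24 ± 0.013 from 25 to 50 mM, without overlap in either. LAMA5 went from 4.22 ± 1.41 to 2.66 ± 0.12 RPKM and from 1.11 ± 0.0021 to 0.695 ± 0.345. These differences did not pass the adjusted test.

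The difference between the rises asks whether a chain responded more from 5 mM than from 25 mM. None of 25 chains tested passed, beside 0.0167% of all genes higher and 0.00837% lower, or 2 and 1 of 11941. At an unadjusted p under 0.05, ITGA10 (0.38 ± 0.14), ITGA1 (0.32 ± 0.11), ITGA2 (0.29 ± 0.11) and ITGA5 (0.17 ± 0.05) had the larger value from 5 mM and ITGA11 (-0.19 ± 0.07) from 25 mM, with adjusted p-values of 0.696 to 0.804 (limma). At that level 3.74% of all genes had the larger value from 5 mM and 2.29% from 25 mM. With the replicate block, and without 5 to 50 mM replicate 1, 0 chains reached it. The 4 and 1 chains became 2 and 1 with 0.1 added to RPKM in place of 1 and with limma-voom on recovered reads. They became 3 and 1 with 0.5 added, and 4 and 4 with GC correction. ITGA10 was under the filter in the rise from 25 to 50 mM. For ITGB5, whose values in both rises were close, the interval of the difference was -0.21 to 0.12.

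**Figure D4:**
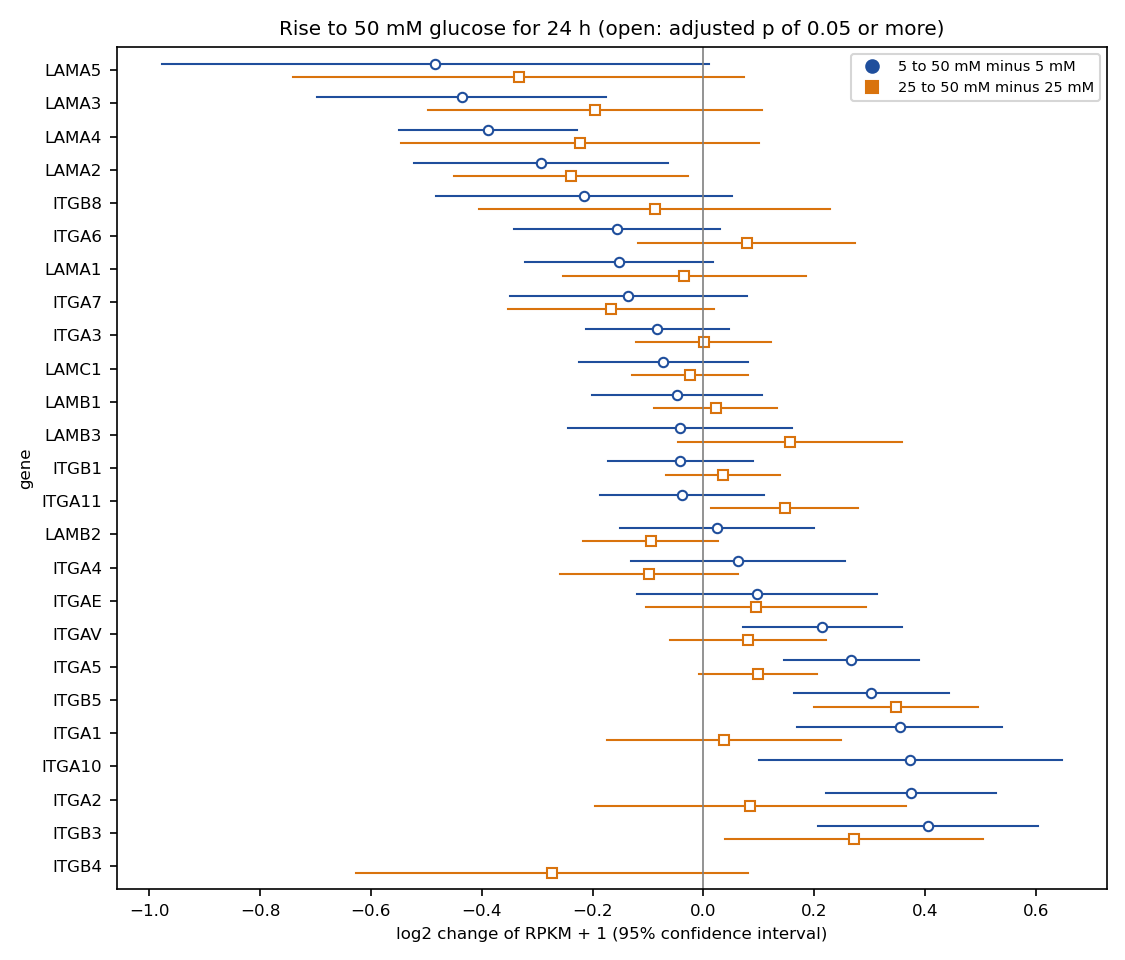
Log2 change of RPKM + 1 (horizontal) with its 95% confidence interval for the rise from 5 to 50 mM (circles) and from 25 to 50 mM (squares), for each chain tested in either (vertical); all symbols are open because no adjusted p was under 0.05. The laminin α chains lie at or left of 0 in both rises, and ITGB3 and ITGB5 lie right of 0 in both.

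Other genes of cell adhesion were followed in 5 lists. From 5 to 50 mM, 5 of their 91 members tested rose, where 0.312% of all genes did. The lists were chosen with earlier results of these data known, so these shares are no test of the lists. COL4A1, a chain of the type of collagen that forms the basement membrane network, rose from 85.1 ± 3.2 to 125 ± 0.36 RPKM (log2 change 0.55, adjusted p = 0.0423 in limma). The others were ligands of integrins: CTGF rose from 138 to 292 RPKM, TNC from 127 to 205, THBS1 from 445 to 690 and CYR61 from 795 to 1113, with limma adjusted p-values of 0.0269, 0.0269, 0.0337 and 0.0411. None of the 5 was called without a filter, without the trend, with the replicate block or without 5 to 50 mM replicate 2 (adjusted p of 0.0665 to 0.466), and without 5 to 50 mM replicate 1 only CTGF was (0.0480). From 25 to 50 mM, none of the lists' members passed, and CTGF was at 159 and 179 RPKM at 25 mM and 228 and 219 at 25 to 50 mM.

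Between 25 mM and 5 mM the lists held genes that were higher and genes that were lower, as did all genes tested, at 17% and 22.1%. Of 18 integrin ligands tested, 7 were higher and 8 lower at 25 mM. The matrix glycoprotein TNC had a log2 change of -1.68 (127 to 39.2 RPKM) and FN1, which encodes fibronectin, of -0.62 (1379 to 898), while the collagen genes COL5A1 and COL1A1 had 1.16 (50.9 to 114) and 0.53 (1058 to 1525). Of 14 basement membrane partners, 5 were higher and 2 lower. NTN4, a netrin that binds laminin γ chains, was at 34.2 RPKM at 5 mM and 66.9 at 25 mM, SPARC, a collagen-binding protein, was higher by 0.44 on the log2 scale, and the laminin-collagen linkers NID1 and NID2 had 0.15 and -0.33.

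Of 16 other laminin receptors and membrane partners, 3 were higher and 10 lower at 25 mM. CD9, a tetraspanin that associates with integrins, had a log2 change of -1.28 (99.7 to 40.4 RPKM), LGALS3, a galectin, -1.02, and PLAUR, the urokinase receptor, -0.83. DAG1, which encodes the laminin receptor dystroglycan, was higher by 0.33 and CAV1, a caveolar coat protein, by 0.62. Of 29 intracellular adaptors and kinases, 7 were higher and 6 lower, near the shares over all genes, with FERMT2, a kindlin that activates integrins, at 0.57 and TLN2, a talin, at -0.73. FLNA, the most abundant of them at a mean of 763 RPKM, did not pass. Of 14 genes of chain folding and trafficking, 6 were higher and 1 lower, with the chaperones HSPA5 at 0.87 and CALR at 0.61.

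Some of the chains are neighbours in the genome. ITGA1 (chromosome 5, 52787916 to 52959209) ends 30142 bases before ITGA2 (52989352 to 53094779) on GRCh38.p14, and their log2 changes at 25 mM were -0.74 and -4.10. ITGA1 also overlaps PELO, which was at 42.7 to 65.0 RPKM, so part of its reads cannot be assigned with certainty. LAMB1 and LAMB4 lie 8500 bases apart on chromosome 7, and LAMB4 stayed at 0 to 0.0590 RPKM beside 99.9 to 137 for LAMB1.

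Promoter sequences (RefSeq, GRCh38.p14) are shown for ITGA2 and LAMA4, with large differences between cultures, and for ITGA10 and ITGA5, which hold the letters GGAATG. That hexamer is the core bound by TEAD factors, the DNA-binding partners of the co-activators YAP1 and TAZ that the study's title names. Each line gives the 250 bases before the start, 5′ to 3′ on the gene's strand, with GGAATG or its reverse complement CATTCC in capitals. The positions are chr5:52989102-52989351 on the plus strand for ITGA2, chr6:112254568-112254817 on the minus strand for LAMA4, chr1:145910051-145910300 on the minus strand for ITGA10 and chr12:54419267-54419516 on the minus strand for ITGA5.
ITGA2: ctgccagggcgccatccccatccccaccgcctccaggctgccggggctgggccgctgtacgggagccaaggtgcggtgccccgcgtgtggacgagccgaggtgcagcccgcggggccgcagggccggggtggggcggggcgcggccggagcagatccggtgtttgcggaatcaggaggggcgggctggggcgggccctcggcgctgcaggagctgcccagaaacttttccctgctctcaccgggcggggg
LAMA4: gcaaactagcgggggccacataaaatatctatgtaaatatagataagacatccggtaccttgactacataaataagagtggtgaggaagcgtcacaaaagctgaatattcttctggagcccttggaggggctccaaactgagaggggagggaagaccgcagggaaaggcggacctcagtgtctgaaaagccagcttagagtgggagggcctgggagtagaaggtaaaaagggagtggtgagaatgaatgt
ITGA10: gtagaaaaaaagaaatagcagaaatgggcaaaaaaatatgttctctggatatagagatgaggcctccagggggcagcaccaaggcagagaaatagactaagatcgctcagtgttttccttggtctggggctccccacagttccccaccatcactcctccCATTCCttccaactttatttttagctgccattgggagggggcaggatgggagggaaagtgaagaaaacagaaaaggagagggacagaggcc
ITGA5: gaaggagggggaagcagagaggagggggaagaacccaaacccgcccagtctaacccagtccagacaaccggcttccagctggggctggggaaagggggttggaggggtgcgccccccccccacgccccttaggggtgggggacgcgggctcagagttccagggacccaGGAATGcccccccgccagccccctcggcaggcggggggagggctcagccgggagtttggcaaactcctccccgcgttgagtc

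In windows of 250 bases before to 50 after the start, searched on both strands, 4 of 33 promoters of 26 chains held GGAATG, which is 12.1%, beside 14.0% of 35116 promoters. They belonged to ITGA5, ITGA10, ITGB1 and LAMA2. The first matched base lay 91 bases before the start in ITGA10 and 82 before it in ITGA5. ITGA3, ITGA7, ITGB3 and LAMA1, which were lower at 25 mM, had no promoter in the set searched. Of the 23 promoters of the other 16 chains lower at 25 mM, 13.0% held GGAATG. In base composition these promoters differed widely: the ITGA2 window was 72.7% G or C with 27 CpG pairs, that of LAMA4 51.3% with 8, that of ITGA10 48.7% with 2 and that of ITGA5 69.3% with 16, beside a median of 58.7% and 14 over all promoters. The matches are descriptions of these letters only.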

How the data were processed

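The authors deposited 2 tables of RPKM values, 1 per maintenance glucose, with STAR and hg38 named in the submitters' processing notes. The counting tool and annotation are not given in the sources used here. Whole reads could be recovered for 100% of 16297 genes above 0 (tolerance 0.01 reads), and the gene lengths implied matched coding length, so RPKM is per coding base. The tables were joined by gene number. Genes that reached 1 RPKM in at least 2 fitted libraries were tested on log2(RPKM + 1) with limma 3.58.1 (two-sided, mean-variance trend). P-values were adjusted by Benjamini-Hochberg over every gene in the fit, and 0.05 was the threshold. Each rise was fitted on its own 4 libraries and all other contrasts on all 8. With 2 against 2 libraries an exact permutation test cannot go below p = 0.333 and was not used. The test was also run on simulated data with 1 spread for all genes and libraries, unlike these data, and no result here rests on that run. Chains with a mean of at least 10 RPKM, called chains and the 3 largest changes per direction in each rise are given by library. The members and lists were chosen with earlier results of these data known. Protein sequences were not used here. Of the genes that the symbol rule finds, 1 is not reported here and is in no count of chains. Alternatives were other pseudocounts, filters, scalings, tests, a GC correction, a replicate block and leaving out each library.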

Additional observations from a re-analysis of the deposited data

How the results depend on the processing

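Among the chains, the count lower at 25 mM than at 5 mM was 16 to 21 under the alternatives in place of 20, with 0 higher in each; 16 came from a mean of at least 5 RPKM, under which fewer chains were tested. Leaving out 1 library gave 18 to 19. Between the groups at 50 mM it was 16 to 22 in place of 19, and 16 to 19 without 1 library, with ITGB4 the 1 chain higher, under GC correction. That ITGB4 call is not support for a difference, for the reason given above. Without a filter ITGA8 was also lower (log2 changes of -0.62 and -0.70), as were ITGA2B and ITGAL between the groups at 50 mM. ITGAV lost its call under median centring, without the trend, in its own 4 libraries, with the replicate block and without any 1 of 4 libraries, ITGB8 under both pseudocounts and several others, and LAMC1 under GC correction. In the rise from 5 to 50 mM, 0 chains were called under 8 alternatives that kept all libraries, 1 under GC correction and 2 in the joint fit, and 0 to 7 without 1 library. In the rise from 25 to 50 mM the range was 0 to 1 without 1 library, and for the difference between the rises 0 to 0. No direction reversed.

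Counts over all genes moved more. From 5 to 50 mM the 39 became 0 without a filter or a trend, 60 with median centring, 140 with GC correction, 130 in the joint fit, and 0 to 805 without 1 library. From 25 to 50 mM the 1 became 0 without a filter or a trend, 4 with median centring and in the joint fit, 7 with limma-voom on recovered reads, 2 with GC correction, and 0 to 777 without 1 library. For the difference between the rises the 3 became 0 under both pseudocounts, a mean of at least 5 RPKM and limma-voom, 1 without a filter or a trend, 5 with GC correction, and 0 to 6 without 1 library (6 without 25 mM replicate 1). At 25 mM against 5 mM the 4671 became 3024 to 4769 without 1 library, the lowest without 25 mM replicate 1, and 3386 to 6054 under the other alternatives. Between the groups at 50 mM the 4946 became 3177 to 5733 without 1 library, with 3177 and 3242 without 5 to 50 mM replicate 1 and replicate 2, and 3420 to 6384 under the other alternatives. In the rise from 5 to 50 mM most genes called were higher, but without 5 mM replicate 1 most were lower. In the rise from 25 to 50 mM most were lower without 25 to 50 mM replicate 2. The cause of these shifts was not tested.

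The replicate block over all 8 libraries called 0 genes in either rise and in the difference between them, and 18 and 16 chains as lower in the contrasts between cultures. The replicate numbers could not be taken as pairs: the groups of a rise share 1 number, and only 5 mM and 25 mM share 2, whose deviations had a correlation of 0.29 across 11067 genes. The comparison of protein sequences that had been planned was not run.

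Depth left chains under 1 RPKM with few reads, and intervals cover the spread of 2 libraries per group. No osmotic control is among the libraries analysed here.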
